A study of Sus scrofa with 24 samples.

Results

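The T cell receptor and its costimulation genes were followed in pig blood cells through 7 named genes: CD3G, CD3E, CD4, CD28, CTLA4, CD40LG and IL7R. The genes were given by name, and every probe set that the platform's gene table assigns to one of those symbols was taken. This found 10 of the 24123 probe sets, for 6 of the 6765 genes that the table names with a single symbol. CD28 is not analysed here. RNA of peripheral blood mononuclear cells, which are lymphocytes and monocytes collected on a density gradient, was measured on 24 Affymetrix pig arrays, 1 for each animal. The 6 diet groups held 4 animals each, 2 females and 2 males, and every diet lasted 4 months. Breed and age were not used here.

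AD-GE pigs ate an atherogenic diet supplemented with grape extract, at 1 g for each 70 kg of body weight. AD-GE-RES pigs ate that diet with the same amount of a grape extract enriched in resveratrol, a stilbene of grape skin, which supplied 18 mg of resveratrol per 70 kg. AD-RES pigs ate it with 18 mg of resveratrol per 70 kg and no extract. AD pigs ate the atherogenic diet alone, with 10% coconut oil, 5.5% beef tallow and, as a bile acid, cholic acid at 1%. CT-GE-RES pigs ate standard commercial chow with the enriched extract at the same amount, and CT pigs ate the chow alone. Arrays are named by group and a number that only tells animals apart, with 1 and 2 the females and 3 and 4 the males.

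The T cell receptor recognises peptides held by major histocompatibility molecules, and the CD3 chains carry its signal into the cell. CD4 marks helper T cells and strengthens binding to class II molecules. A second signal comes through CD28, which CTLA4 opposes by competing for the same ligands, and activated helper T cells show CD40LG to instruct B cells and antigen-presenting cells. IL7R, the receptor chain for interleukin 7, supports the survival of naive and memory T cells.

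Of the 10 probe sets, 7 were tested among 17999 probe sets and all 7 passed the filter on low values, which was set on the mean over all arrays. CD3G, CD3E, CTLA4, CD40LG and IL7R had 1 tested probe set each, and CD4 had 2, called the brighter and the dimmer here. The other 3 were Affymetrix control probe sets for the 3' end, the middle and the 5' end of the CTLA4 transcript, which were described beside the design probe set and kept out of the main fit. Values are log2 intensities, and a difference of 1 is a 2-fold change. Averaged over all arrays, CD3G stood at 11.20, CD3E at 10.18 and IL7R at 10.08. CD40LG at 4.65, CD4 at 4.54 and 4.43 and CTLA4 at 4.07 lay under 5.33, the median of all probe set means. Probes bind with different strength, so these means do not order the genes by RNA amount, and the table holds no detection calls that would say which dim signals are background.

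The arrays differed in the 3'/5' ratio of their controls GAPDH, actin and EF1A, a log2 ratio of signal at the 3' end over signal at the 5' end that is commonly read as a sign of RNA or labelling quality. The lowest was 1.37 on AD 2 and the highest 4.39 on CT 4. AD-GE averaged 2.46 ± 0.82, AD-GE-RES 2.69 ± 1.24, AD-RES 1.92 ± 0.23 and AD 2.19 ± 0.87 (SD, n = 4 each). CT-GE-RES averaged 2.20 ± 0.89 and CT 3.15 ± 1.13. Exact permutation tests of the 5 diet comparisons gave two-sided p between 0.143 and 0.543, where 0.0286 is the smallest that 4 against 4 arrays allow. The ratio of the spiked poly-A transcripts, which enter before labelling, followed it (Pearson r 0.949, Spearman rho 0.837, each with an adjusted permutation p of 4e-05, r 0.923 without the 2 farthest arrays). CT 4 stood apart from the other arrays and is given with and without below. Its summed intensity of the 5 tested T cell markers, 3038, was the lowest of all 24 arrays, its sum of 6 neutrophil markers, 4845, and of 5 erythroid markers, 35045, the highest.

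The labelled cell mixture showed its main members. The 5 of 8 listed T cell markers that were tested (CD3D, CD3E, CD3G, CD2 and LCK) had median sums of 6665 (AD-GE), 6942 (AD-GE-RES), 7033 (AD-RES), 5701 (AD), 7559 (CT-GE-RES) and 5379 (CT). The 12 of 16 tested monocyte markers summed to 10718 to 13905 in AD-GE, 12438 to 23676 in AD-GE-RES, 9734 to 16684 in AD-RES and 16049 to 18700 in AD, with every AD-GE animal below every AD animal. Their sums were 12209 to 18399 in CT-GE-RES and 15508 to 23395 in CT. The 3 of 11 B cell markers ranged from 774 to 2205. In such mixed cells, fewer cells of a type and less RNA per cell cannot be told apart. The mean log2 of the T cell markers also went with the array's 3'/5' ratio (Pearson r −0.850), and the part of the ratio in these sums was not tested. No probe set is at 0 on this scale.

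CD3G and CD3E encode the gamma and epsilon chains of CD3, without which the receptor does not reach the cell surface. CD3G read 11.14, 11.47, 11.39 and 11.29 in AD-GE pigs, 10.74, 10.92, 11.44 and 11.62 in AD-GE-RES pigs, and 11.57, 11.62, 11.27 and 11.15 in AD-RES. It read 10.95, 11.04, 11.33 and 10.96 in AD, 11.48, 11.41, 11.49 and 11.47 in CT-GE-RES and 11.10, 11.21, 11.12 and 9.62 in CT. The CT-GE-RES animals lay close together and above all 4 CT animals, and CT 4 lay far under every other array. In AD-GE-RES both males were above both females, and the males had the lower mean 3'/5' ratio (1.65, against 3.74 in the females). Means ran from CT-GE-RES (11.46) through AD-RES (11.40), AD-GE (11.32), AD-GE-RES (11.18) and AD (11.07) to CT (10.76), and no neighbours in this order differed at an unadjusted limma p under 0.05.

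CD3E read 10.01, 10.08, 10.30 and 10.19 in AD-GE pigs, 9.51, 10.30, 10.79 and 10.45 in AD-GE-RES pigs and 10.25, 10.21, 10.01 and 9.91 in AD-RES. It read 10.64, 9.76, 10.16 and 10.19 in AD, 10.24, 10.42, 10.43 and 10.53 in CT-GE-RES and 10.55, 10.12, 9.76 and 9.55 in CT. All groups overlapped, with the lowest and the highest value of all 24 arrays both in AD-GE-RES. Group means stayed between 10.00 in CT and 10.41 in CT-GE-RES. CD3E had the smallest moderated F statistic of the 7 probe sets for any difference among the 6 groups (0.76, limma adjusted p = 0.820).

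CD4 was measured by a brighter and a dimmer probe set. The brighter read 4.46, 4.53, 4.19 and 4.64 in AD-GE pigs, 4.13, 5.28, 4.84 and 4.55 in AD-GE-RES pigs and 4.79, 4.46, 4.05 and 4.40 in AD-RES. It read 4.47, 4.52, 4.87 and 4.63 in AD, 4.72, 4.92, 4.70 and 4.61 in CT-GE-RES and 4.37, 4.09, 4.37 and 4.43 in CT. The 4 CT animals lay below all AD and all CT-GE-RES animals. The dimmer probe set ranged from 3.89 to 4.85, both in AD-RES animals, and none of the 5 comparisons separated its groups. Over the 24 arrays the CD4 probe sets were only loosely related to each other (Pearson r 0.318 as a description, 0.308 without CT 4).

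CTLA4, the inhibitory receptor of activated and regulatory T cells, read 5.24, 4.77, 4.25 and 4.06 in CT-GE-RES and 3.78, 3.88, 4.03 and 3.90 in CT. The 2 CT-GE-RES females were higher than the other 22 arrays, none of which exceeded 4.39. In the atherogenic groups it read 3.44, 4.16, 3.79 and 4.05 in AD-GE pigs, 3.94, 3.88, 4.11 and 3.97 in AD-GE-RES pigs, 3.88, 3.87, 3.94 and 3.66 in AD-RES and 4.29, 4.32, 4.39 and 4.01 in AD. Every AD-RES animal lay below every AD animal, while AD-GE and AD-GE-RES each overlapped with AD.

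CD40LG, the ligand of CD40 on B cells and macrophages, varied most of the 7 probe sets (SD over 24 arrays 0.68, against 0.25 to 0.59 for the others). It read 4.23, 4.33, 4.97 and 4.74 in AD-GE pigs, 4.19, 3.66, 5.21 and 5.37 in AD-GE-RES pigs and 4.87, 5.50, 5.24 and 5.31 in AD-RES. It read 4.06, 5.32, 5.28 and 4.19 in AD, 5.46, 4.19, 4.00 and 5.35 in CT-GE-RES and 5.15, 3.78, 3.84 and 3.29 in CT. Within AD, AD-GE-RES, CT-GE-RES and CT the animals of 1 group fell far apart, with values near 4 and near 5.3 side by side. Only AD-RES had all 4 animals above 4.8.

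IL7R read 9.58, 10.27, 11.01 and 10.96 in AD-GE pigs, 9.94, 9.25, 10.56 and 10.67 in AD-GE-RES pigs and 10.42, 10.64, 10.26 and 10.21 in AD-RES. It read 9.52, 9.69, 10.54 and 10.61 in AD, 9.72, 9.69, 9.86 and 10.40 in CT-GE-RES and 10.03, 9.76, 9.84 and 8.41 in CT. In AD-GE, AD-GE-RES, AD and CT-GE-RES every male was above every female, and in AD-RES and CT the sexes did not follow that order. The mean 3'/5' ratio of females and males was 3.16 and 1.76 in AD-GE, 3.74 and 1.65 in AD-GE-RES, and 2.16 and 2.22 in AD. It was 2.10 and 2.31 in CT-GE-RES, 1.98 and 1.86 in AD-RES and 2.48 and 3.81 in CT. The part of the ratio in the order of the sexes was not tested. CT 4 was again the lowest array.

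**Figure D1:**
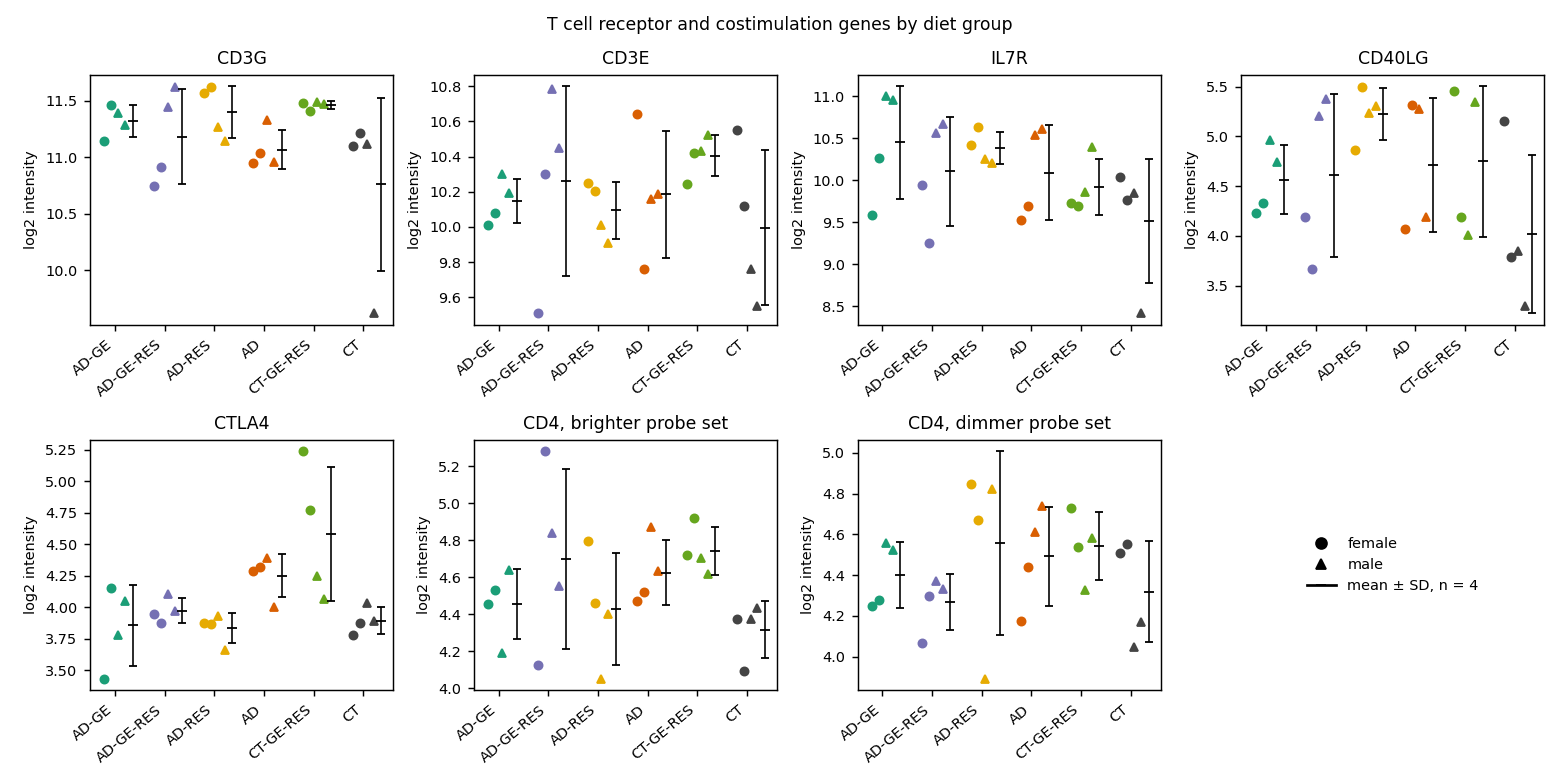
Log2 intensity (y axis) of the 7 tested probe sets in the 6 diet groups (x axis), with a circle for each female, a triangle for each male, and the group mean ± SD (n = 4) beside them. The 2 CT-GE-RES females stand above all other arrays for CTLA4 (5.24 and 4.77), CT 4 stands below them for CD3G (9.62) and IL7R (8.41), and CD40LG splits most groups into high and low animals.

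The comparison of AD with CT addressed the response of the circulating cells to a diet high in fat. No gene passed the test: limma called 0 of the 7 probe sets and 0 of all 17999 (0% called), with 0 of the 7 at an unadjusted p under 0.05, where 6.38% of all probe sets were. All 7 differences were above 0, as were 50.4% of all, with CD40LG at 0.70 (SE 0.43, 95% interval −0.20 to 1.59) and IL7R at 0.58 (SE 0.34, −0.14 to 1.29) the largest. CTLA4 differed by 0.36 (SE 0.19), CD3G and the brighter CD4 probe set by 0.31 each, CD3E by 0.19 and the dimmer CD4 probe set by 0.17. Groups did not overlap for 1 of 7, the brighter CD4 probe set, where 2.74% of all did not. With each array left out in turn the lowest differences were those without CT 4 for CD3G (−0.088, highest 0.46), IL7R (0.12, highest 0.83) and CD40LG (0.41, highest 1.13 without CT 1). CD3E lay between 0.027 without AD 1 and 0.39 without CT 1, the dimmer CD4 probe set between 0.079 without AD 4 and 0.29 without AD 1, the brighter between 0.21 and 0.37 and CTLA4 between 0.29 and 0.42. With the ratio as a term CD40LG stood at 0.03 (SE 0.13), IL7R at 0.20 (SE 0.27) and CD3G at 0.06 (SE 0.22), while the brighter CD4 probe set stood at 0.35 (SE 0.20) and CTLA4 at 0.27 (SE 0.19). Among the marker lists, 4 of 5 T cell markers, which include CD3G and CD3E, were above 0 (median 0.31), as were 6 of 7 cytotoxic and natural killer cell (0.17), 4 of 6 neutrophil (0.071) and 6 of 12 monocyte markers (0.0051). Below 0 were 6 of 8 platelet (median −0.72), 4 of 5 erythroid (−0.47) and 3 of 3 B cell markers (−0.37). Of all these, 1 platelet and 1 cytotoxic marker had an unadjusted p under 0.05 and 0 were called, and their part in the differences was not tested.

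For IL7R the animals of each sex were set apart in opposite directions in this comparison, though the difference between the sexes did not pass the test. In males it read 10.54 and 10.61 in AD, against 9.84 and 8.41 in CT, and in females 9.52 and 9.69 in AD, against 10.03 and 9.76 in CT. AD males were therefore above both CT males, and AD females below both CT females. In males alone IL7R was called (1.45 higher, limma adjusted p = 0.04998), as were 1.34% of all probe sets. In females alone limma called 0 of the 7, beside 0.00556% of all, and the difference was −0.29 (adjusted p = 0.943). Females minus males gave −1.74 (SE 0.49, limma adjusted p = 0.137), beside 0.117% of all probe sets that passed. The call in males lay just under the threshold and rested on single arrays. Without CT 4 the difference was 0.73, without AD 3 it was 1.48, without AD 4 it was 1.41, and without CT 3 it was 2.16. In each of those fits 1 male arm held a lone animal, assumed to vary like the other groups. The call was also lost without any single female of AD or CT, though the male difference then stayed at 1.45. With the ratio as a term the male difference of IL7R was 0.98 (limma adjusted p = 0.188). Signs also differed by sex, uncalled, for CD3G (0.78 in males, −0.16 in females), CD3E (0.52 and −0.14) and the dimmer CD4 probe set (0.57 and −0.22). The brighter CD4 probe set, CTLA4 and CD40LG were above 0 in both sexes.

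Grape extract on the atherogenic diet, AD-GE against AD, was the next question. limma called 0 of 7 probe sets (0% of all), and 1 of 7 had an unadjusted p under 0.05, as did 6.09% of all. That was CTLA4, at 3.86 ± 0.32 in AD-GE and 4.25 ± 0.17 in AD (SD, n = 4 each), which differed by −0.40 (SE 0.19, limma adjusted p = 0.814). IL7R differed by 0.36 (SE 0.34) and CD3G by 0.25 (SE 0.26). CD3E, CD40LG and the CD4 probe sets differed by −0.04 to −0.17. None of the 7 separated the groups, where 4.72% of all probe sets did. With each array left out in turn CTLA4 lay between −0.48 without AD-GE 4 and −0.23 without AD-GE 1, IL7R between 0.23 without AD 1 and 0.60 without AD-GE 1, and the brighter CD4 probe set between −0.24 without AD-GE 4 and −0.078 without AD 3. All 12 tested monocyte markers had differences below 0 in this comparison (median −0.72), 5 of them at an unadjusted p under 0.05. Below 0 were also 5 of 6 neutrophil (median −0.83), 7 of 8 platelet (−0.29) and 5 of 7 cytotoxic and natural killer cell markers (−0.061), with 1 neutrophil and 1 platelet marker at an unadjusted p under 0.05. Above 0 were 4 of 5 erythroid (median 0.49), 4 of 5 T cell (0.030) and 2 of 3 B cell markers (0.11). None of these markers was called (0 in each list), and their part in the values above was not tested.

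The enriched extract on the same diet, AD-GE-RES against AD, came next. limma called 0 of 7 (0% of all), 0 of 7 had an unadjusted p under 0.05 beside 2.4% of all, and 0 of 7 separated the groups beside 1.26%. Differences lay between −0.28 (CTLA4, SE 0.19) and 0.11 (CD3G, SE 0.26), and CD40LG at −0.10 had a 95% interval of −0.996 to 0.79. With each array left out in turn CTLA4 lay between −0.34 and −0.21, and the dimmer CD4 probe set between −0.34 without AD 1 and −0.13 without AD 4. Markers below 0 were 12 of 12 monocyte (median −0.35), 6 of 6 neutrophil (−0.67), 4 of 5 erythroid (−0.24), 5 of 8 platelet (−0.030) and 5 of 7 cytotoxic and natural killer cell markers (−0.019), with 1 monocyte and 1 neutrophil marker at an unadjusted p under 0.05. Above 0 were 3 of 5 T cell (median 0.075) and 2 of 3 B cell markers (0.086), and 0 were called in each list.

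Resveratrol alone, AD-RES against AD, also gave 0 calls of 7 (0% of all), with 1 of 7 at an unadjusted p under 0.05 beside 4.45% of all. CTLA4 stood at 3.84 ± 0.12 in AD-RES and 4.25 ± 0.17 in AD, which differed by −0.42 (SE 0.19, limma adjusted p = 0.980), and it was the 1 of 7 whose groups did not overlap, beside 2.81% of all. CD40LG differed by 0.52 (SE 0.43) and, with the ratio as a term, by 0.33 (SE 0.12, limma adjusted p = 0.800). With the ratio of the spiked transcripts in its place CD40LG differed by 0.14 (SE 0.16). CD3G differed by 0.33 (SE 0.26) and IL7R by 0.29 (SE 0.34). With each array left out in turn CD40LG lay between 0.30 without AD 4 and 0.76 without AD 2, IL7R between 0.13 without AD-RES 2 and 0.42 without AD-RES 4, and the brighter CD4 probe set between −0.32 without AD-RES 1 and −0.072 without AD-RES 3. Markers below 0 were 11 of 12 monocyte (median −0.57, 4 at an unadjusted p under 0.05), 6 of 6 neutrophil (−0.26, 1 under 0.05), 3 of 3 B cell (−0.29) and 4 of 7 cytotoxic and natural killer cell markers (−0.059, 1 under 0.05). Above 0 were 4 of 5 erythroid (median 0.74), 4 of 5 T cell (0.33) and 5 of 8 platelet markers (0.30, with 1 below 0 at an unadjusted p under 0.05), and 0 were called in each list. The 3 supplemented groups share the AD animals, so their differences for CTLA4 of −0.40, −0.28 and −0.42 have the same 4 values underneath.

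On chow, CT-GE-RES against CT, all 7 differences were again above 0, as were 52.3% of all, and limma called 0 of 7 (0% of all). At an unadjusted p under 0.05 there were 3 of 7, beside 6.8% of all. CTLA4 averaged 4.58 ± 0.53 in CT-GE-RES and 3.90 ± 0.10 in CT, a difference of 0.68 (SE 0.19, 95% interval 0.30 to 1.07, limma adjusted p = 0.700). CD3G differed by 0.70 (SE 0.26) and the brighter CD4 probe set by 0.42 (SE 0.19), both with a limma adjusted p of 0.700. These 3 were the probe sets whose groups did not overlap, beside 4.03% of all. CD40LG differed by 0.73 (SE 0.43), CD3E and IL7R by 0.41 each and the dimmer CD4 probe set by 0.22. In males and females alone CD3G differed by 1.11 and 0.29, CD3E by 0.82 and −0.0038, and IL7R by 1.00 and −0.19. CD40LG differed by 1.11 and 0.36, and the dimmer CD4 probe set by 0.34 and 0.10. The brighter CD4 probe set (0.26 and 0.59) and CTLA4 differed more in females. No difference between the sexes passed. With each array left out in turn the lowest differences were those without CT 4 for CD3G (0.31, highest 0.85), CD3E (0.25, highest 0.61), CD40LG (0.45, highest 1.16) and IL7R (−0.053, highest 0.66). The dimmer CD4 probe set lay between 0.13 without CT 3 and 0.30, the brighter between 0.34 and 0.47, and CTLA4 between 0.47 without CT-GE-RES 1 and 0.85. With the ratio as a term CD40LG differed by 0.08, IL7R by 0.04 and CD3G by 0.46 (SE 0.22), while CTLA4 stood at 0.60 (SE 0.19) and the brighter CD4 probe set at 0.46 (SE 0.20). Of the 5 T cell markers, which include CD3G and CD3E, all 5 were above 0 (median 0.70) and 4 had an unadjusted p under 0.05, and of the 7 tested of 12 cytotoxic and natural killer cell markers 6 were above 0 (median 0.53) and 3 had an unadjusted p under 0.05. Below 0 were 4 of 5 erythroid (median −1.16, 1 at an unadjusted p under 0.05), 5 of 6 neutrophil (−1.06), 10 of 12 monocyte (−0.29), 3 of 3 B cell (−0.22) and 5 of 8 platelet markers (−0.028), and 0 were called in each list. T cell marker sums were 6870 to 8452 in CT-GE-RES and 3038 to 6899 in CT, and cytotoxic and natural killer cell sums were 19260 to 23584 in CT-GE-RES and 8525 to 20679 in CT. Their part in the differences was not tested. CT is the reference of both this comparison and that of AD, so the positive signs in both share its 4 arrays.

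The effect of the enriched extract was then compared between the diets, as AD-GE-RES minus AD less CT-GE-RES minus CT. No probe set passed (0 of 7, 0% of all), and 1 of 7 had an unadjusted p under 0.05 beside 3.12% of all. CTLA4 gave −0.96 (SE 0.26, limma adjusted p = 0.99989), and the other 6 lay between −0.84 (CD40LG, SE 0.61) and −0.33 (CD3E, SE 0.32). Over all 15 pairs of groups, 0 of 105 tests of the 7 probe sets passed and 13 had an unadjusted p under 0.05, beside 7.61% of the tests of all probe sets. The smallest adjusted p was that of CTLA4 in AD-GE against CT-GE-RES, a difference of −0.72 (SE 0.19, limma adjusted p = 0.0796), in a comparison where 0.317% of all were called. In AD-GE against CT 0.05% of all were called, and in the other pairs 0%. In the F test for any difference among the 6 groups, limma called 0 of 7 (0% of all), and CTLA4 alone had an unadjusted p under 0.05 (F 4.97, limma adjusted p = 0.360), beside 9.16% of all.

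**Figure D2:**
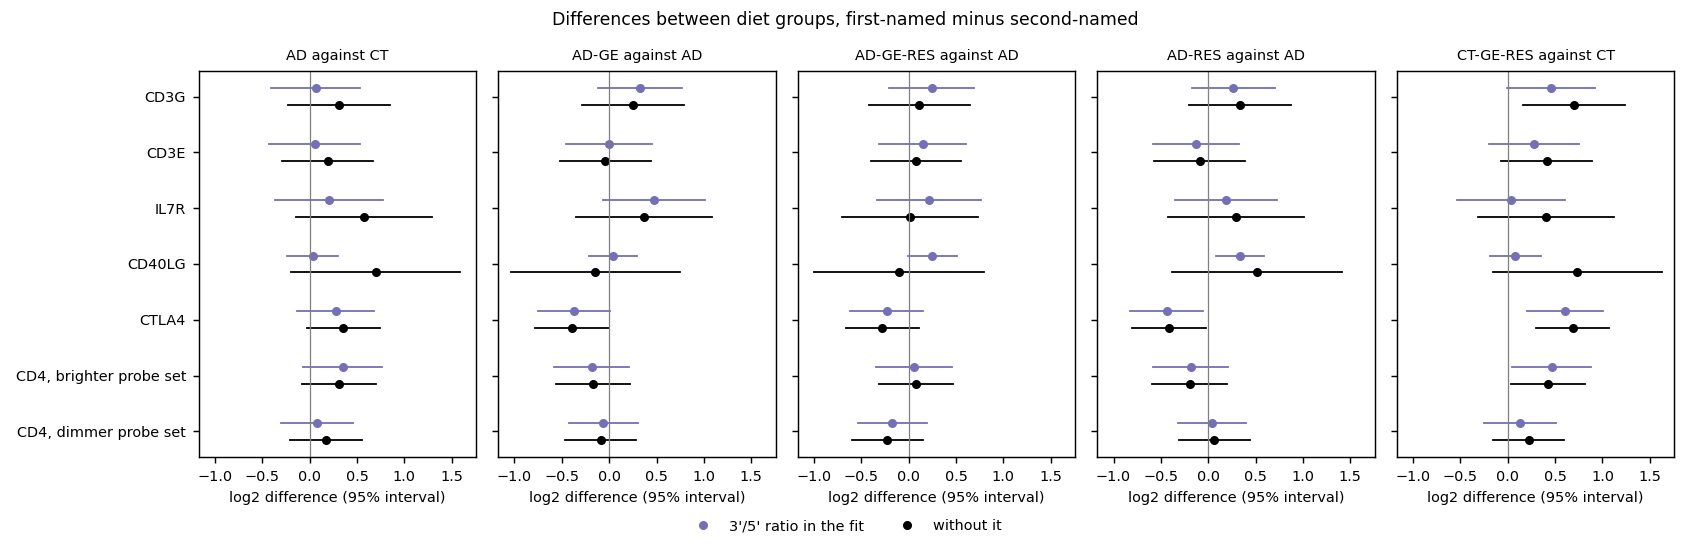
Differences in log2 intensity (x axis, with 95% intervals) of the 7 probe sets in the 5 diet comparisons, first-named group minus second-named, in a model that held the 3'/5' ratio (purple) and without it (black). The CD40LG intervals shrink and its differences in AD against CT and CT-GE-RES against CT move to 0.03 and 0.08 with the ratio as a term, while those of CTLA4 move little.

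CTLA4 also had control probe sets at 3 places along its transcript. The 3' control probe set read 5.45, 5.22, 4.56 and 4.51 in CT-GE-RES and 4.42, 4.55, 4.48 and 4.59 in CT. The middle one read 5.37, 4.64, 4.71 and 4.64 in CT-GE-RES and 4.28, 4.31, 4.29 and 4.70 in CT. The 5' one read 4.94, 4.74, 4.31 and 4.60 in CT-GE-RES and 4.71, 4.40, 4.56 and 5.04 in CT. The female CT-GE-RES 1 was the highest of all 24 arrays on the design, the 3' and the middle probe sets, but not on the 5' one, where CT 4 was. CT-GE-RES 2, the other female, was second on the design and 3' probe sets and within the range of the rest on the other two.

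With the control probe sets in the fit, CT-GE-RES against CT gave 0.43 (SE 0.16) at the 3' end, 0.44 (SE 0.15) in the middle and −0.03 (SE 0.14) at the 5' end, each with an adjusted limma p of 0.700 or more. In AD-GE and AD-RES against AD, where the design probe set was lower at an unadjusted p under 0.05, the 3 control probe sets lay between −0.08 and 0.09. Across the 24 arrays the design probe set and the 3' control had a Pearson r of 0.767, and 0.155 without the 2 CT-GE-RES females, given as a description of probe sets on the same arrays.

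In females alone CTLA4 differed by 1.18 (SE 0.21, limma adjusted p = 0.146) between CT-GE-RES and CT, and in males alone by 0.19 (SE 0.21, adjusted p = 0.623). In neither sex was it among the calls, which were 0% of all probe sets in females and 0.678% in males. The difference between the sexes was 0.98 (SE 0.30, limma adjusted p = 0.180) on the design probe set, where 0.289% of all passed, and 0.85 (adjusted p = 0.105) on the 3' control. In summed T cell markers CT-GE-RES 1 ranked 5 of the 24 arrays at 7716 and CT-GE-RES 2 ranked 11 at 6870. Their part in the CTLA4 values was not tested.

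**Figure D3:**
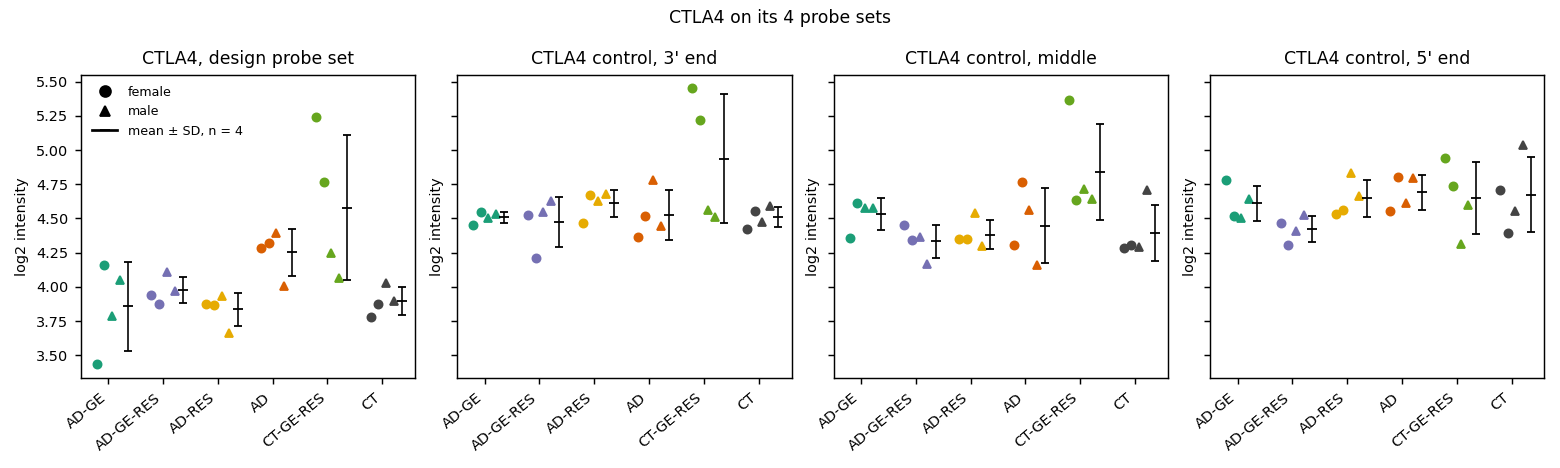
Log2 intensity (y axis) of the CTLA4 design probe set and the 3 CTLA4 control probe sets in the 6 diet groups (x axis), with circles for females, triangles for males and the group mean ± SD (n = 4). The 2 CT-GE-RES females are high on the design probe set (5.24 and 4.77) and the 3' control (5.45 and 5.22), CT-GE-RES 1 is also high on the middle one (5.37), and on the 5' control the group is not above CT.

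The sexes were also compared over all diets. limma called 0 of the 7 probe sets, beside 0.267% of all, and 0 of 7 had an unadjusted p under 0.05 beside 10.3%. IL7R had the smallest p, with females minus males at −0.40 (SE 0.20, limma adjusted p = 0.504). The others lay between −0.17 (CD40LG, SE 0.25) and 0.11 (CTLA4, SE 0.11).

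The level of several of these genes moved with the 3'/5' ratio of the array. With diet group and sex in the fit, 3 of the 7 probe sets were lower on arrays with a higher ratio at an adjusted p under 0.05, beside 11.5% of all probe sets called in either direction and 8.29% called lower. CD40LG fell by 0.69 per unit of the ratio (SE 0.04, limma adjusted p = 1.38e-09), the 20th smallest p of 17999. IL7R fell by 0.39 (SE 0.10, adjusted p = 0.00864) and CD3G by 0.26 (SE 0.08, adjusted p = 0.0365). CD3E had a slope of −0.14 (SE 0.08, adjusted p = 0.288), the dimmer CD4 probe set −0.10 (SE 0.06), CTLA4 −0.09 (SE 0.07) and the brighter CD4 probe set 0.04 (SE 0.07), and none of these passed. The median slope over all probe sets was 0.02.

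The calls of IL7R and CD3G depended on CT 4. Without it IL7R had a slope of −0.26 (adjusted p = 0.0586) and CD3G of −0.13 (adjusted p = 0.194), so that 1 of 7 was called. CD3G also lost its call without any of CT 1, AD 3, AD-GE 1, AD-GE-RES 2, AD-GE-RES 3 or AD-GE-RES 4, with adjusted p between 0.0511 and 0.0785 and slopes between −0.28 and −0.23. CD40LG kept its call in all 24 fits that left out 1 array, with slopes between −0.72 and −0.67.

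Arrays lay on both sides of a gap in the ratio, 13 between 1.37 and 2.23 and 11 between 2.69 and 4.39. CD40LG read 4.74 to 5.50 with a median of 5.28 on the 13 and 3.29 to 4.33 with a median of 4.06 on the 11. No array crossed over, and AD, AD-GE, AD-GE-RES, CT-GE-RES and CT each had arrays on both sides, while all 4 AD-RES arrays lay on the low side of the ratio. IL7R read 9.69 to 11.01 on the 13 and 8.41 to 10.61 on the 11, and CD3G 11.04 to 11.62 and 9.62 to 11.49, both with overlap.

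Over all 24 arrays and 10 probe sets, CD40LG had a Pearson r of −0.958 and a Spearman rho of −0.883 with the ratio (adjusted permutation p of 1e-04 for each, the smallest that the permutations give after adjustment). Without CT 4 and AD-GE-RES 2, the 2 arrays farthest from the median ratio, r was −0.944. It was −0.950 in the 12 females and −0.966 in the 12 males. On the 13 arrays with a low ratio r was −0.524 (rho −0.588, permutation p = 0.0660, adjusted p = 0.385), and on the 11 with a high one −0.841 (rho −0.455, p = 0.00182, adjusted p = 0.0182). IL7R had r −0.692 and rho −0.475 (adjusted permutation p of 0.00075 and 0.0528), with r −0.495 without the 2 farthest arrays. CD3G had r −0.628 and rho −0.497 (adjusted permutation p of 0.0012 and 0.0528), with r −0.419 without them. Below the gap IL7R (r 0.322) and CD3G (r 0.201) had the opposite sign, with permutation p of 0.287 and 0.517. On the 11 arrays with a high ratio, which include CT 4, IL7R had r −0.778 and rho −0.473 and CD3G r −0.763 and rho −0.573 (adjusted permutation p for r of 0.0273 and 0.0318). Over the arrays without CT 4, r was −0.588 for IL7R and −0.497 for CD3G. CD3E, CTLA4 and the CD4 probe sets had r between −0.437 and 0.026, with adjusted permutation p of 0.0843 to 0.902. The dimmer CD4 probe set had rho −0.472 (adjusted permutation p = 0.0528), close to IL7R and CD3G, and r −0.376 without the 2 farthest arrays. For CD3E, CTLA4 and the brighter CD4 probe set rho was −0.347, −0.324 and −0.214 (adjusted permutation p of 0.193, 0.193 and 0.349). Within the 13 arrays with a low ratio CTLA4 had r −0.526 and rho −0.703 (adjusted permutation p for r of 0.385). Within the 11 with a high ratio it had r −0.538 and rho −0.755 (0.229 for r), and these rho were not tested. CD3E and the CD4 probe sets had r between −0.088 and 0.299 on the low side and between −0.499 and 0.092 on the high side. Their rho on the high side was −0.609 for CD3E, −0.382 for the brighter and −0.473 for the dimmer CD4 probe set, also not tested.

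The ratio of the spiked transcripts gave similar slopes for the same 3 probe sets: −0.83 (SE 0.07) for CD40LG, −0.48 (SE 0.12) for IL7R and −0.35 (SE 0.09) for CD3G, with limma adjusted p of 0.0149 or less. The ratio of the hybridisation controls, which are added after labelling, had r 0.287 and rho 0.050 with the housekeeping ratio over all arrays (permutation p = 0.176 and 0.812). It spanned only 0.56 to 0.76, with CT 4 the highest. Against it CD3G had r −0.694 and rho −0.310 (adjusted permutation p of 0.0322 and 0.604), IL7R r −0.546 and rho −0.282 (0.0322 and 0.604), the 5' CTLA4 control r 0.516 and rho 0.396 (0.0322 and 0.560) and CD40LG r −0.281 and rho −0.166 (0.377 and 0.826). Without CT 4 and AD 1, the 2 arrays farthest from its median, these r were −0.147, −0.084, 0.336 and 0.164. With group and sex in the fit, limma called IL7R (adjusted p = 0.0120) and CD3G (adjusted p = 0.0426) lower on arrays with a higher hybridisation ratio, 2 of 7 beside 1.75% of all. Without CT 4 it called 0 of 7 and 0% of all. The mean log2 of the T cell markers had a Pearson r of −0.850 with the housekeeping ratio, that of the neutrophil markers 0.460, of the cytotoxic and natural killer cell markers −0.499, of the B cell markers 0.383 and of the monocyte markers 0.026, given as descriptions over the same 24 arrays. That T cell mean includes CD3G and CD3E, and the mean of CD3D, CD2 and LCK alone had r −0.905 with the ratio, 0.876 with CD40LG, 0.711 with IL7R and 0.840 with CD3G. How much of the level of CD40LG, IL7R and CD3G went with the ratio and how much with the T cell markers was not tested.

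**Figure D4:**
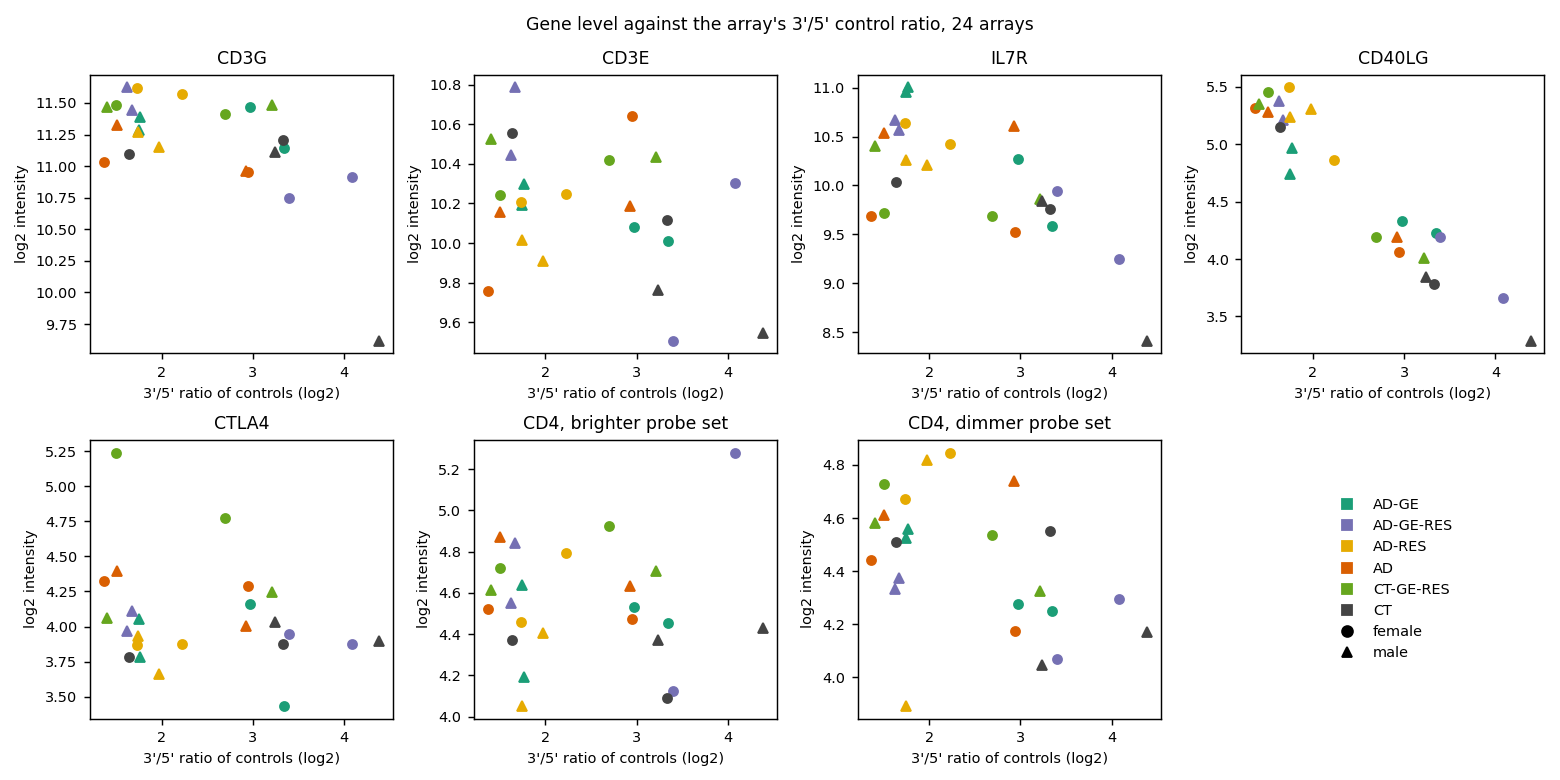
Log2 intensity (y axis) of the 7 tested probe sets against the array's log2 3'/5' ratio (x axis) on 24 arrays, coloured by diet group, with circles for females and triangles for males. CD40LG lies above 4.7 on the 13 arrays with a ratio up to 2.23 and below 4.4 on the 11 from 2.69 upward, IL7R and CD3G are lowest on CT 4 at 4.39, and CTLA4 and CD4 show no such step.

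Other genes of T cell activation were counted on lists of 107 genes, of which 46 had a tested probe set. In the 5 diet comparisons and the interaction, limma called 0 of the 46. In AD against CT 34 of 46 differences were above 0 (median 0.14, against 0.00 over all probe sets), with 3 at an unadjusted p under 0.05 and above 0, as were 3.25% of all. These were S1PR1, the receptor that guides lymphocytes out of lymphoid organs (0.69, SE 0.15, limma adjusted p = 0.633), SOCS1, an inhibitor of cytokine signalling (0.63, SE 0.23), and TXK, a Tec family kinase (0.59, SE 0.24). In CT-GE-RES against CT 34 of 46 were again above 0 (median 0.15), and 6 had an unadjusted p under 0.05 beside 3.87% of all. The 3 with the smallest p were CD8B, a chain of the coreceptor of cytotoxic T cells (0.64, SE 0.26), the adaptor SH2D1A (0.59, SE 0.25) and LAT, the scaffold of early receptor signalling (0.42, SE 0.18).

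In AD-GE against AD 0 of the 46 had an unadjusted p under 0.05, beside 6.09% of all probe sets. In AD-GE-RES against AD STAT5A, a transcription factor of interleukin signalling, was the only one (0.21, SE 0.10, limma adjusted p = 0.99953), beside 2.4% of all. In AD-RES against AD there were S1PR1 (−0.34, SE 0.15) and SOCS1 (−0.49, SE 0.23), each with a limma adjusted p of 0.980, beside 4.45% of all at an unadjusted p under 0.05. Both have the AD animals as reference here and as the first-named group in AD against CT. Between the sexes limma called SOCS1, lower in females (−0.64, SE 0.13, adjusted p = 0.0464), and CD40, the partner of CD40LG, higher in females (0.52, SE 0.11, adjusted p = 0.0482), 2 of the 46 beside 0.267% of all.

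On the 3'/5' ratio 12 of the 46 were called, 11 of them lower on arrays with a higher ratio, beside 11.5% of all probe sets called and 8.29% called lower. The steepest were CD69, an early activation marker (−0.997, SE 0.07), CD247, the zeta chain of the receptor (−0.95, SE 0.07), the adhesion receptor CD2 (−0.95, SE 0.09), CD3D, the delta chain of CD3 (−0.85, SE 0.07), and the costimulatory receptor CD27 (−0.68, SE 0.08), with limma adjusted p of 3.85e-06 or less. CD86, IL15, PTPN6, TXK, CCR7 and LCP2 were also lower, with slopes from −0.39 to −0.21, and KLF2, a transcription factor of quiescent T cells, was higher (0.14, SE 0.04, adjusted p = 0.0198). STAT6, VAV1 and SOCS1, with the largest p, had slopes of −0.02, 0.00 and 0.01. By list, 3 of 6 genes of the receptor complex and coreceptors, 3 of 6 costimulatory receptors and ligands, 3 of 13 signalling proteins, 1 of 12 cytokine signalling genes and 1 of 9 transcription factors and homing receptors were called lower.

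**Figure D5:**
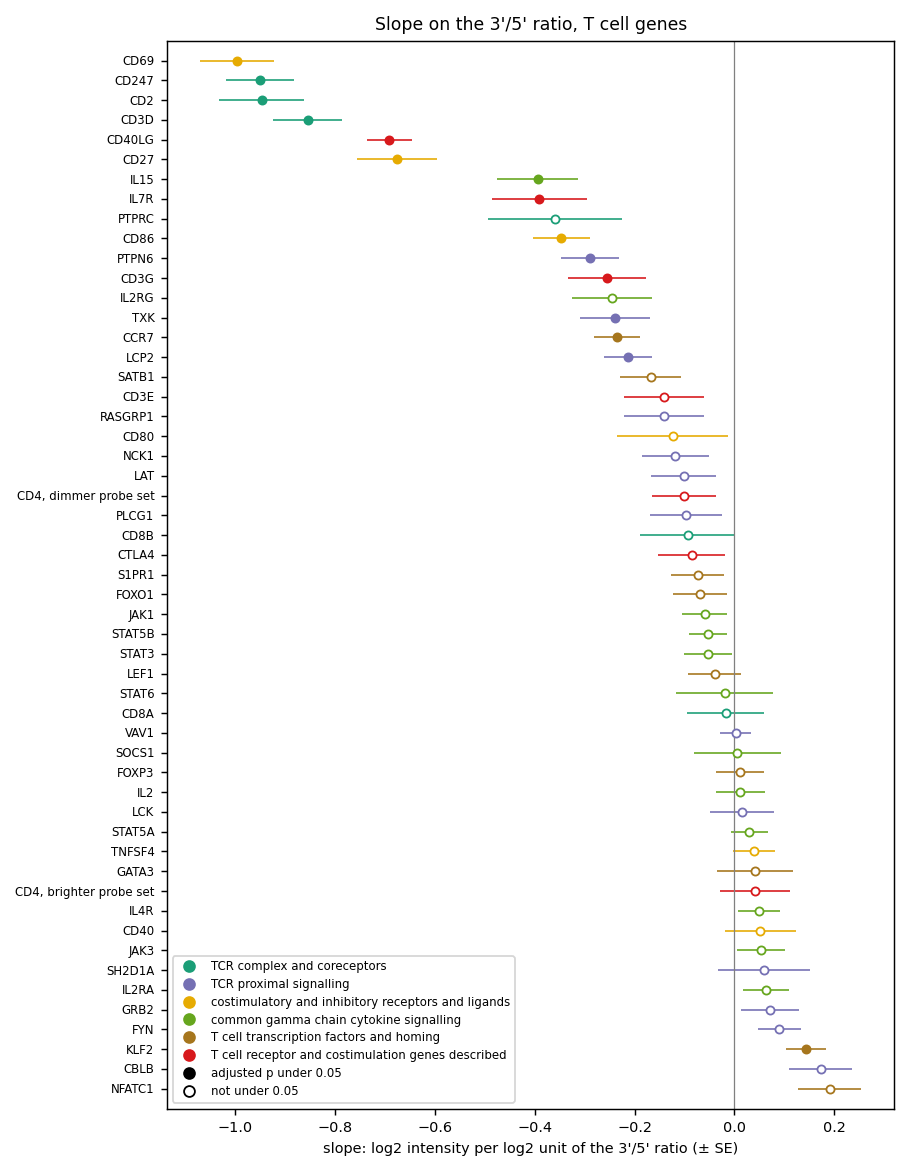
Slope of log2 intensity per unit of the log2 3'/5' ratio (x axis, ± SE, with group and sex in the fit) for the 7 probe sets described (red) and 46 other T cell genes, coloured by list and ordered from the highest slope at the bottom to the lowest at the top. Filled points have an adjusted p under 0.05. CD69, CD247, CD2, CD3D, CD40LG and CD27 lie between −0.997 and −0.68, and CTLA4 and both CD4 probe sets lie near 0.

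Genes with the most similar pattern were ranked by the Pearson r of their values after diet group and sex were removed, over 24 arrays and 6032 genes, as a description with no test. For CD3G these were FUNDC2 (r 0.975), RPL5 (0.951) and RPL9 (0.948), and without CT 4 the same 3 coefficients were 0.924, 0.842 and 0.880. For CD3E they were TMEM131L (0.874), PTPRCAP (0.862) and TGFB1 (0.851). For CD40LG they were NUBP2, ATXN2 and RAC2, at 0.961, 0.959 and 0.959. When the 3'/5' ratio was removed too, the highest for CD40LG was LIME1 at 0.712, and none of the earlier 3 was among its first 3. For IL7R they were INSIG2 (0.918), KRR1 (0.908) and CHRAC1 (0.897), which without CT 4 stood at 0.826, 0.807 and 0.780. For CTLA4 they were POLR2G (0.770), LMCD1 (0.765) and PBX2 (0.725). The brighter CD4 probe set was most like NVL (0.871) and the dimmer most like IDH3B (0.689).

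Among the genes themselves, IL7R and CD3G were the most alike after group and sex were removed (r 0.819, and 0.694 with the ratio removed as well). CD40LG had r 0.603 with IL7R and 0.533 with CD3G, and −0.367 and −0.301 once the ratio was removed. CTLA4 had r between −0.078 and 0.235 with the other 6 probe sets. These coefficients describe 24 arrays that share their ratio and cell mixture, and their values without CT 4 were lower for CD3G with IL7R (0.484 on the plain values, against 0.714 with all arrays).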

How the data were processed

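Total RNA of pig peripheral blood mononuclear cells was hybridised to 24 Affymetrix arrays, per the labels' protocols. The authors deposited 1 linear intensity per probe set and array; RMA and GCOS are named in the submitters' processing notes, and their versions and roles are not given in the sources used here. Array medians lay between 38.6 and 41.2. After log2 transformation, 124 of the 24123 probe sets were set aside as controls and the lowest 25% by mean (under 3.57) were left out, which left 17999. Gene symbols came from the platform annotation.

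limma 3.58.1 (R 4.3.3) fitted the 6 diets and sex to the 24 arrays together (17 residual and 3.60 prior degrees of freedom), and tests were two-sided with Benjamini-Hochberg adjustment over 17999 probe sets and a threshold of 0.05. For the slope the array's 3'/5' ratio was added; it is the mean of log2 3' minus 5' signal over 3 transcripts, and 12 pairs each for the spiked and the hybridisation controls. Results for 1 sex, and differences between the sexes, came from a fit of 12 diet and sex groups. Correlations were tested with 100000 permutations (SciPy 1.17.1). Diets and sexes came from the labels, which name separate animals and give no batch. With 1 array for each animal, p-values measure the spread of animals and of their arrays together, which cannot be told apart. The number of animals limits the precision. The method was tested on simulated data, whose noise was independent between probe sets and held no variation shared across arrays. There limma called 30% of 50 differences of 0.5 and 88% of 50 differences of 1. The simulation held 50 changed probe sets at each of 0.5, 1, 1.5 and 2 together, picked at random. So many changes at once loosen the adjusted threshold, while the real diet comparisons called 0% of all. These shares therefore do not give the chance of a call for the genes described, of which CD40LG had an SE of 0.43 in AD against CT.

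The genes, lists and alternatives were chosen with earlier results of these data known. All probe sets of the genes are described. Of listed T cell genes, those called are named, otherwise up to 3 per comparison with the smallest p under 0.05, and for the slope the 5 smallest and 3 largest p; 3 genes per probe set are named for likeness. Alternatives were another filter, normalization, array weighting, variance prior or ratio, no sex term, fewer arrays or groups, and all probe sets of a gene. No sequences or genome positions were used here.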

Additional observations from a re-analysis of the deposited data

Results flagged for a closer look

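Groups of 4 arrays were checked for an array far from the other 3 (by Dixon's test for outlying values), which chance gives in about 1 of 20 groups. Of 66 groups tested, 5 had one. CT 4 was low for CD3G (9.62, the others 11.10 to 11.21) and for IL7R (8.41, the others 9.76 to 10.03), the array that also had the highest 3'/5' ratio and the highest neutrophil and erythroid marker sums. On the middle CTLA4 control probe set CT-GE-RES 1 was high (5.37, the others 4.64 to 4.71), CT 4 was high (4.70, the others 4.28 to 4.31) and AD-GE 1 was low (4.36, the others 4.57 to 4.62).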

How the results depend on the processing

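The number of probe sets called among the 7 stayed at 0 in each diet comparison, in the interaction, in the F test and between the sexes under the alternatives run, with 1 exception: in males alone AD against CT gave 1 call, IL7R, whose cause was not tested beyond the arrays left out above. For the slope on the 3'/5' ratio 3 were called, and 1 to 3 with each array left out in turn. On the arrays with a ratio under 2.5 alone 0 were called, and 0 on those above 2.5 alone. Those 2 fits held fewer arrays and, unlike the main one, no diet group or sex term. No paired analysis was possible because the labels give animals no number shared between groups.

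Differences that turned sign were all uncalled. In females alone AD against CT was −0.16 for CD3G, −0.14 for CD3E, −0.22 for the dimmer CD4 probe set and −0.29 for IL7R; AD-GE-RES against AD was −0.16 for CD3G, −0.29 for CD3E and −0.011 for IL7R; AD-RES against AD was 0.028 for CD3E and 0.13 for the brighter CD4 probe set; and CT-GE-RES against CT was −0.0038 for CD3E and −0.19 for IL7R. In males alone AD-GE against AD was 0.074 for CD3E and 0.12 for CD40LG, AD-GE-RES against AD was −0.057 for the brighter CD4 probe set and 0.56 for CD40LG, and AD-RES against AD was −0.32 for the dimmer CD4 probe set and −0.34 for IL7R. Without CT 4, CD3G in AD against CT was −0.088 (highest 0.46, without CT 2) and IL7R in CT-GE-RES against CT −0.053 (highest 0.66, without CT 1), and without CT 4 and AD-GE-RES 1 together these were −0.080 and −0.055, with IL7R in AD-GE-RES against AD at −0.024. With each animal left out in turn, AD-GE against AD ran from −0.19 to 0.12 for CD3E, from −0.21 to 0.0033 for the dimmer CD4 probe set and from −0.36 to 0.099 for CD40LG. AD-GE-RES against AD ran from −0.051 to 0.27 for CD3G, from −0.11 to 0.34 for CD3E, from −0.12 to 0.28 for the brighter CD4 probe set, from −0.34 to 0.20 for CD40LG and from −0.11 to 0.25 for IL7R. AD-RES against AD ran from −0.24 to 0.071 for CD3E and from −0.051 to 0.30 for the dimmer CD4 probe set. With the ratio as a term CD40LG was 0.042 in AD-GE and 0.25 in AD-GE-RES against AD, and with the spiked ratio 0.12 in AD-GE-RES against AD. Array weights gave 0.17 for CD40LG in AD-GE-RES against AD and −0.043 for the dimmer CD4 probe set in AD-RES against AD, and the mean of both CD4 probe sets −0.075 in AD-GE-RES against AD. The slope of the brighter CD4 probe set was −0.029 without AD-GE-RES 2 (highest 0.074, without AD-GE-RES 1) and −0.030 for the mean of both. Arrays with a ratio under 2.5 were chosen after seeing the data and fitted with no diet group or sex term. Their slopes were 0.17 for CD3G, −0.093 and 0.32 for the brighter and dimmer CD4 probe sets and 0.57 for IL7R. Against the hybridisation controls, also chosen then, CTLA4 had a slope of 0.20, and with CT 4 left out of that fit 0 of the 7 were called and slopes were 1.52 for CD3E and −0.93 for the brighter CD4 probe set. The causes of these turns were not tested.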
